A study of Homo sapiens with 9 samples.

Results

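ENPEP, the gene of the cell-surface enzyme aminopeptidase A, and RARRES2, the gene of the secreted protein chemerin, are described here across an Ewing sarcoma line and 3 lines selected from it. They are set beside 5 genes of related function: the surface peptidases ANPEP, MME and ECE1 and the chemerin receptors CMKLR1 and CCRL2. These are 7 of 19775 genes with a probe set of their own on the array, and 14 probe sets read them. For each gene the probe set with the highest mean over all 9 arrays gave the main value. ENPEP and RARRES2 were taken up with their levels in these arrays already known, so their differences are given as a description with no test of them. The other 5 genes were taken as relatives by function, also with earlier results of these data known.

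The study measured RNA on Affymetrix HG-U133 Plus 2 arrays. TC/AEW was derived from the Ewing sarcoma cell line TC-71 with rising doses, up to 5 µM, of NVP-AEW541, which inhibits the kinase of the IGF-1 receptor. TC/AVE was derived in the same way with the antibody AVE1642 against that receptor, at up to 10 µg/ml. TC/CP was derived with the antibody figitumumab, whose top dose was not stated. Selection took 6 months. The parental TC-71 cells are not resistant to these agents, and all cells grew in Iscove medium with fetal bovine serum. Each resistant line is a single selected line with 2 technical replicate arrays, averaged into 1 sample, and TC-71 has 3 biological samples. The labels do not say whether the agents were present when RNA was taken. Selection, time in culture and drift of a line cannot be told apart.

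Aminopeptidase A removes acidic residues from the amino end of peptides and turns angiotensin II into angiotensin III. It belongs to the M1 family of zinc peptidases together with aminopeptidase N (ANPEP, CD13), while neprilysin (MME, CD10) and endothelin-converting enzyme (ECE1) belong to the separate M13 family. These enzymes sit in the plasma membrane with their active site outside the cell, where they activate or destroy peptide hormones. Chemerin is secreted as an inactive precursor. Proteases of the clotting, fibrinolytic and inflammatory systems trim its carboxyl end, after which it signals through CMKLR1, while CCRL2 binds it without known signalling. RARRES2 was named for its response to retinoids.

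The stretches upstream of ENPEP and RARRES2 are shown because, of the 7 genes, these 2 were lower in TC/AVE by the most. All 7 genes matched the RefSeq promoter table by symbol. Both stretches come from it, on GRCh38.p14, and hold the 250 bases before the annotated start, read 5′ to 3′ on the strand of the gene. Capitals mark every match, on either strand, to 5 motifs searched. These were the box TATAA of classical promoters, the box CCAAT of many housekeeping promoters, the GC box GGGCGG, the repeat GGAAGGAA of the kind bound by the EWS-FLI1 fusion protein of Ewing sarcoma, and the hexamer AGGTCA bound by retinoid and other nuclear receptors.
ENPEP, chr4:110475905-110476154, plus strand: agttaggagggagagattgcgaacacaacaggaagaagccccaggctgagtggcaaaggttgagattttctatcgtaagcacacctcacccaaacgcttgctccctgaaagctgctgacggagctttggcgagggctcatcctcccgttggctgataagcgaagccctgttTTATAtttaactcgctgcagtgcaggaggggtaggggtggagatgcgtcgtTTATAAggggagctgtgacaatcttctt
RARRES2, chr7:150341630-150341879, minus strand: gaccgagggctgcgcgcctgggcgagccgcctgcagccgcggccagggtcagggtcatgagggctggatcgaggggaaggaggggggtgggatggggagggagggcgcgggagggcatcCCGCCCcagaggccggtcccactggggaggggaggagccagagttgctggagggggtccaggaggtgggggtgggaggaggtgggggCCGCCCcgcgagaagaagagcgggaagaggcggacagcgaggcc

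The ENPEP window held 3 TATAA matches and no match to the other motifs. Counted from the start, the match on the gene's strand began at base -27 and overlapped an opposite-strand match at base -28, and the remaining opposite-strand match lay at base -79. The RARRES2 window held 2 GC boxes, both on the opposite strand, and no match to the other motifs. The windows had no motif in common among the 5, and 52.0% of bases in the ENPEP window were G or C, against 74.8% in the RARRES2 window and a median of 58.0% over 35116 windows of the same length. Of those windows, 18.9% held the TATAA box and 32.0% the CCAAT box, 42.6% held the GC box, 3.06% the GGAAGGAA repeat and 12.1% the nuclear receptor hexamer. A missing match says only that these letters are not in this window.

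All levels below are log2 values from the robust multi-array average (RMA), so that 1 unit is a doubling of signal. A probe set was kept for testing where at least 2 of the 9 arrays reached 5. The array medians lay between 5.39 and 5.45. The cells read as Ewing sarcoma cells in all groups: of 9 markers of that tumour, 8 had a probe set, and their mean level was 10.6 in TC/AEW, 10.5 in TC/AVE and 10.3 in TC/CP, against 10.8 in TC-71. CD99, the surface antigen used in diagnosis, lay between 12.8 and 13.0 in every group. Within that list LIPI, a membrane-associated lipase, stood at 5.82, 5.23 and 5.33 in the lines in that order, against 7.01 ± 0.49 in TC-71, and FCGRT, the neonatal Fc receptor, at 10.50, 10.06 and 9.60, against 11.31 ± 0.40. The part of these shifts in the results below was not tested. Aminopeptidase A is also known from pericytes and kidney epithelium. All 5 measured kidney markers lay under 5 in every group. The 7 pericyte and smooth muscle markers had a mean of 5.93 in TC/AEW, 5.81 in TC/AVE and 5.87 in TC/CP, against 6.05 in TC-71. Among them PDGFRB, the receptor that marks pericytes, read 6.58 and 6.70 in TC/AEW, 6.75 and 6.62 in TC/AVE and 6.71 and 6.45 in TC/CP, against 7.86, 7.55 and 7.49 in TC-71. Every line array of PDGFRB lay below all TC-71 arrays, as in 4.27% of all tested genes, with differences of -0.99, -0.95 and -1.05 in the same lines. ACTA2, smooth muscle actin, differed by 0.20, -0.80 and -0.39. The other 5 markers differed by at most 0.13, and the proteoglycan CSPG4 stayed under 5 in every group, between 4.02 and 4.17. The part of PDGFRB-expressing or ACTA2-expressing cells in the ENPEP level was not tested. Of 5 measured blood cell markers, 4 lay under 5 in every group, including PTPRC, the leukocyte antigen CD45. The exception, HBB of red blood cells, read between 5.85 and 5.96. HBB was taken as not expressed, which was not tested, so a level near 6 can still be background on some probe sets.

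ENPEP was lower in all 3 resistant lines than in TC-71, and by far the most in TC/AVE. Its main probe set, 204844_at, read 8.29 and 8.47 on the arrays of TC/AEW, 5.48 and 5.42 on those of TC/AVE and 8.51 and 8.49 on those of TC/CP, against 9.42, 9.62 and 9.89 in TC-71 samples 1, 2 and 3. Every array of every line lay below all TC-71 arrays, and the TC/AVE arrays lay apart from those of the other lines. In bulk RNA, fewer cells with the transcript and less of it per cell cannot be told apart. The share of all 14181 tested genes with every array below all TC-71 arrays was 14.3% for TC/AEW, 19.7% for TC/AVE, 17% for TC/CP and 4.27% for the 3 lines in common.

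Relative to the TC-71 mean of 9.64 ± 0.23 (SD, n = 3), ENPEP differed by -1.26 in TC/AEW (2.40-fold lower), -4.19 in TC/AVE (18.3-fold lower) and -1.14 in TC/CP (2.21-fold lower). The TC/AVE mean of 5.45 is below the level of HBB, so the fold for TC/AVE may be a lower bound. TC-71 sample 2 has the same array set as TC/AEW and TC/AVE, and TC-71 sample 3 the same as TC/CP, by the year in the array file names of the labels. Against the TC-71 sample of its own set, the ENPEP difference was -1.24 in TC/AEW, -4.17 in TC/AVE and -1.39 in TC/CP.

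A second probe set, 204845_s_at, gave the same picture for ENPEP. It read 7.87 and 7.91 in TC/AEW, 4.44 and 4.66 in TC/AVE and 7.92 and 7.63 in TC/CP, against 8.58, 9.17 and 9.08 in TC-71. The differences from TC-71 were -1.05 in TC/AEW, -4.39 in TC/AVE and -1.17 in TC/CP. Within the array set they were -1.28, -4.61 and -1.31 in the same lines. TC/AEW was 0.12 below TC/CP on the main probe set and 0.12 above it on the second, so the order of these 2 lines is not settled. TC/AVE stood 2.93 below TC/AEW and 3.05 below TC/CP on the main probe set.

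**Figure D1:**
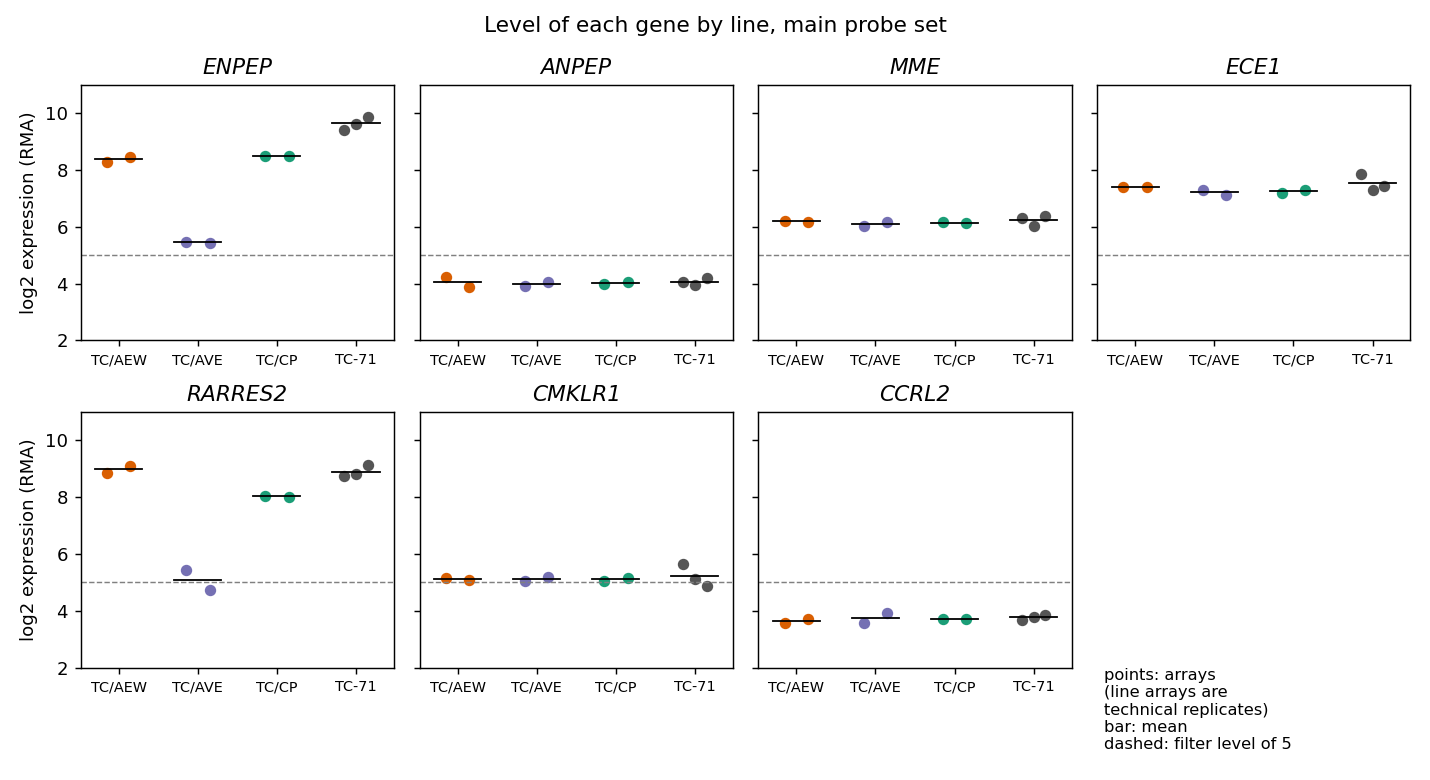
Log2 expression (RMA) of each of the 7 genes on its main probe set, by line; points are arrays, bars are means and the dashed line is the filter level of 5. ENPEP and RARRES2 lie at about 5 in TC/AVE, while the other 5 genes stay within 0.8 log2 units over all 9 arrays.

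RARRES2 was also lowest in TC/AVE, but the other lines differed from the ENPEP pattern. Its only probe set, 209496_at, read 8.86 and 9.10 in TC/AEW, 5.43 and 4.73 in TC/AVE and 8.05 and 8.02 in TC/CP, against 8.75, 8.81 and 9.15 in TC-71. The TC/AEW arrays lay within the range of the TC-71 arrays, while those of TC/AVE and TC/CP lay below all of them. Against the TC-71 mean of 8.90 ± 0.21 (SD, n = 3), the differences were 0.07 in TC/AEW, -3.82 in TC/AVE (14.1-fold lower) and -0.87 in TC/CP (1.83-fold lower).

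The 2 technical arrays of TC/AVE were 0.70 apart for RARRES2, wider than the TC-71 range of 0.39. Both lay below the HBB level, so the 14.1-fold difference may be a lower bound. Within the array set, the RARRES2 difference was 0.17 in TC/AEW, -3.72 in TC/AVE and -1.11 in TC/CP. In order of level, TC/AEW and TC-71 did not differ beyond their spread, TC/CP followed, and TC/AVE was last.

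**Figure D2:**
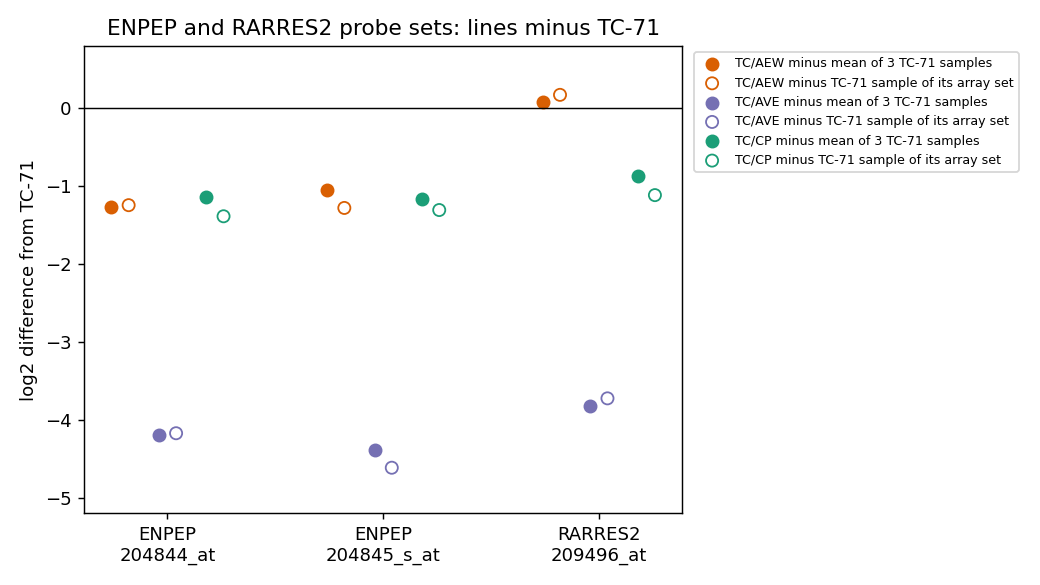
Log2 difference of each line from TC-71 for the 2 ENPEP probe sets and the RARRES2 probe set; filled points use the mean of 3 TC-71 samples and open points the TC-71 sample of the same array set. TC/AVE lies between -3.72 and -4.61 on all 3 probe sets, and TC/AEW is near 0 for RARRES2 only.

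Among all 14181 tested genes ordered by their difference in TC/AVE, ENPEP was number 3 from the bottom and RARRES2 number 7. A difference of -3 or lower was found for 14 genes in TC/AVE (0.0987%), 2 in TC/AEW (0.0141%) and 2 in TC/CP (0.0141%). In TC/AEW, ENPEP was number 33 from the bottom and RARRES2 number 8795. In TC/CP they were number 78 and number 156. These places are descriptions, since the levels were known when the genes were taken up.

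**Figure D3:**
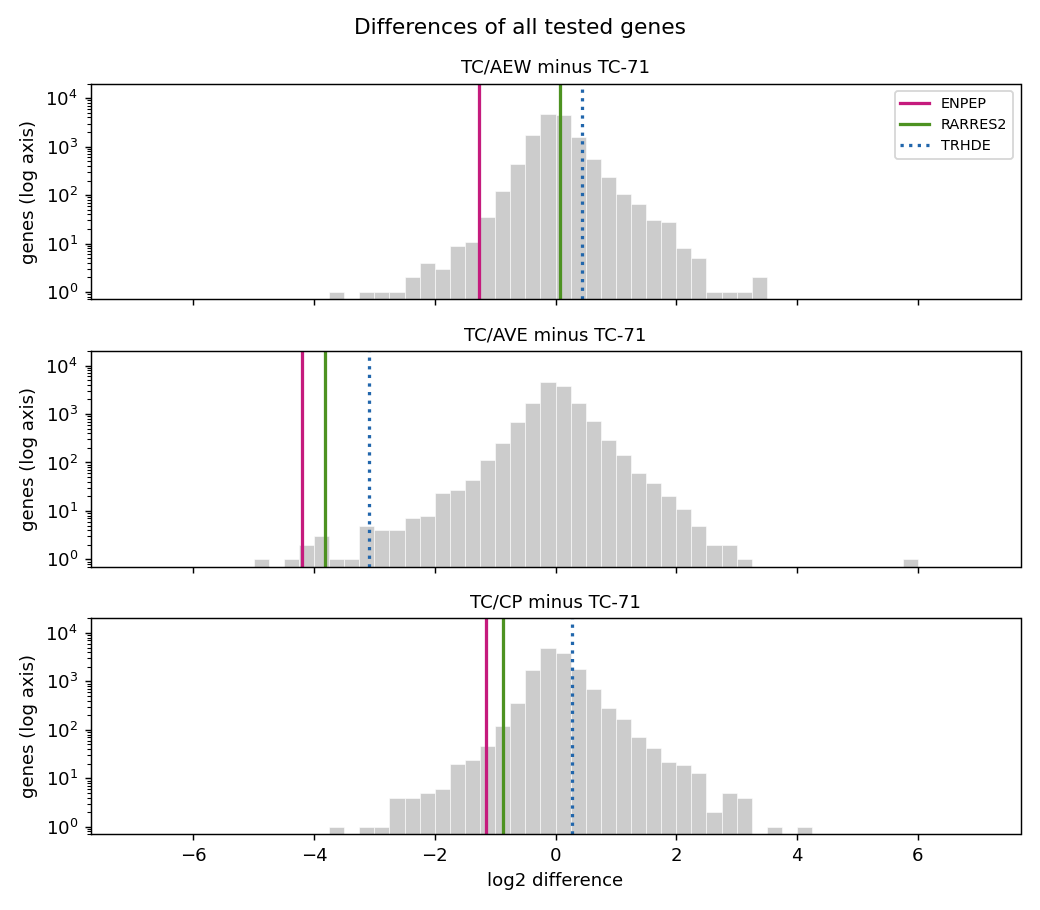
Number of tested genes (log axis) by log2 difference from TC-71 in each of TC/AEW, TC/AVE, TC/CP, with ENPEP, RARRES2 and the related surface peptidase TRHDE marked. All 3 lie in the far lower tail in TC/AVE, at -4.19, -3.82 and -3.09.

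Averaged over the lines, ENPEP stood at 7.44 against 9.64 in TC-71, a difference of -2.20, and RARRES2 at 7.36 against 8.90, a difference of -1.54. Both means rest in large part on TC/AVE. Without that line the difference was -1.20 for ENPEP and -0.40 for RARRES2.

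ECE1, MME and ANPEP, the other surface peptidases among the 7 genes, differed from TC-71 by at most 0.32 on their main probe sets. MME and ANPEP were near or under background, so little can be read from them. ECE1, which cuts big endothelin to its active form, read 7.40 and 7.41 in TC/AEW, 7.31 and 7.13 in TC/AVE and 7.20 and 7.31 in TC/CP, against 7.86, 7.31 and 7.44 in TC-71. The TC/AEW arrays lay within the TC-71 range, and the upper array of TC/AVE and of TC/CP was level with the lowest TC-71 array. The differences were -0.13 ± 0.29 in TC/AEW, -0.32 ± 0.29 in TC/AVE and -0.28 ± 0.29 in TC/CP (moderated SE), with adjusted p = 1, 0.983 and 0.998 by limma. Its second probe set, 201750_s_at, had differences of -0.18, 0.02 and -0.08 in the same lines.

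MME, which degrades enkephalins, tachykinins and natriuretic peptides, read 6.22 and 6.18 in TC/AEW, 6.05 and 6.18 in TC/AVE and 6.16 and 6.14 in TC/CP, against 6.32, 6.05 and 6.38 in TC-71. These levels are close to that of HBB. Its differences were -0.04 ± 0.24 in TC/AEW, -0.13 ± 0.24 in TC/AVE and -0.10 ± 0.24 in TC/CP, with adjusted p between 0.998 and 1 by limma. The second MME probe set, 203434_s_at, read between 3.03 and 3.45 over the 9 arrays, so the 2 probe sets do not settle whether the gene was expressed.

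ANPEP, whose enzyme trims neutral residues from peptides, did not reach 5 on any of its 3 probe sets. The main one, 234576_at, read 4.24 and 3.88 in TC/AEW, 3.93 and 4.05 in TC/AVE and 3.98 and 4.05 in TC/CP, against 4.05, 3.95 and 4.19 in TC-71. Over all 9 arrays the 3 probe sets spanned 0.36, 0.51 and 0.16 log2 units. ANPEP was therefore not tested.

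The chemerin receptors were near background in all groups, including TC/AVE. CMKLR1 read 5.15 and 5.09 in TC/AEW, 5.06 and 5.18 in TC/AVE and 5.05 and 5.15 in TC/CP, against 5.65, 5.11 and 4.88 in TC-71. The line arrays lay inside the TC-71 range, and the differences were -0.09, -0.10 and -0.11 with a moderated SE of 0.35 each and adjusted p between 0.998 and 1 by limma. The other CMKLR1 probe sets, 207652_s_at and 210659_at, ran from 4.58 to 5.07 and from 4.06 to 4.49. CCRL2 read 3.56 and 3.70 in TC/AEW, 3.58 and 3.91 in TC/AVE and 3.70 in both arrays of TC/CP, against 3.69, 3.78 and 3.85 in TC-71. It stayed under 5 on every array and was not tested.

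Thus 5 of the 7 genes passed the filter on low levels: ENPEP, MME, ECE1, RARRES2 and CMKLR1. Of the 3 that are tested here, MME, ECE1 and CMKLR1, 0 were called at an adjusted p under 0.05 by limma in any of the 4 comparisons, against 0% of all tested genes for each single line and 0.0212% in the lines in common. At an unadjusted p under 0.05 their count was 0 in each comparison, while 3.53% of all genes passed it in TC/AEW, 7.18% in TC/AVE, 4.97% in TC/CP and 8.37% in the lines in common. Against the TC-71 sample of the same array set, some of these differences had the other sign. MME differed by 0.16 in TC/AEW, 0.07 in TC/AVE and -0.23 in TC/CP, ECE1 by 0.09, -0.09 and -0.19, and CMKLR1 by 0.01, 0.01 and 0.22 in the same lines. In the lines in common, the differences of MME, ECE1 and CMKLR1 were -0.09, -0.25 and -0.10, with adjusted p = 0.883, 0.784 and 0.913. With 1 sample per line and the spread taken from 3 TC-71 samples, a p that misses the threshold does not show that levels were alike.

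The wider systems in which these genes act were followed through 9 lists with 97 gene entries, of which 86 had a single-symbol probe set and 57 passed the filter. A difference of 1 or more in either direction was found for 3.51% of the 57 in TC/AEW, 5.26% in TC/AVE and 5.26% in TC/CP. The shares over all tested genes were 2.24%, 3.72% and 3.22% in the same lines. In the lines in common limma called 0 of the 57 at an adjusted p under 0.05, against 0.0212% of all tested genes. At an unadjusted p under 0.05 by limma, 4 of the 57 passed there, against 8.37% of all tested genes. Of these 4, 3 were among the 10 tested proteases linked to chemerin processing and their inhibitors. The pooled counts do not set the listed genes apart from the rest. The median difference of the 57 was 0.02 in TC/AEW, -0.06 in TC/AVE, -0.01 in TC/CP and 0.02 in the lines in common, beside medians of 0.002, -0.017, -0.002 and -0.005 over all genes.

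TRHDE, a surface M1 aminopeptidase that inactivates thyrotropin-releasing hormone, had the largest difference of any listed gene. It read 7.71 and 7.58 in TC/AEW, 3.79 and 4.44 in TC/AVE and 7.50 and 7.46 in TC/CP, against 6.79, 7.22 and 7.61 in TC-71. The TC/AVE arrays lay below all others, and those of TC/AEW and TC/CP lay close to the upper end of TC-71. The difference in TC/AVE was -3.09 ± 0.36 (adjusted p = 0.204 by limma), and -3.11 within the array set, with a TC/AVE level at background. Of the other 5 tested relatives of that family, AOPEP differed by 0.89 in TC/AVE, NPEPPS by -0.46, LTA4H by -0.32, RNPEP by -0.20 and ERAP1 by 0.13. Their adjusted p ran from 0.521 to 1, so the 6 tested genes did not share a direction in TC/AVE, where 4 were lower and 2 higher.

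Among relatives of MME and ECE1, ECE2 stood above TC-71 in all lines. It read 8.11 and 8.43 in TC/AEW, 8.34 and 8.37 in TC/AVE and 8.42 and 8.26 in TC/CP, against 7.76, 7.53 and 7.80 in TC-71. Every line array lay above all TC-71 arrays, as in 5.11% of all tested genes. The difference was 0.58 in TC/AEW, 0.66 in TC/AVE, 0.65 in TC/CP and 0.63 in the lines in common (adjusted p = 0.263 by limma). MMEL1, ECEL1 and KEL, the other tested members of the family, differed by at most 0.17 in any line, and PHEX stayed under the filter. In a list of other surface and secreted peptidases, 10 genes were tested. PRCP differed by -0.18 in TC/AEW, -0.60 in TC/AVE and 0.05 in TC/CP. In the same lines CPD differed by 0.33, -0.31 and 0.50, and ACE by -0.46, -0.36 and -0.26. DPP4 stayed under the filter.

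Among peptides and receptors that these enzymes act on or feed into, the largest differences from TC-71 fell in different lines, each a single sample. GAL, the neuropeptide galanin, stood at 8.12 in TC/AEW, 5.68 in TC/AVE and 6.48 in TC/CP, against 6.49 ± 0.33 in TC-71. PENK, the precursor of the enkephalins, stood at 6.67, 5.53 and 5.82 in the same lines, against 6.64 ± 0.31 in TC-71. CALCRL, a receptor subunit for adrenomedullin, was 1.41 lower in TC/CP than in TC-71, whose SD was 0.92. NPR3, the natriuretic peptide clearance receptor, was 1.03 higher in TC/CP, at 6.06 against 5.03 ± 0.08 in TC-71. Both levels may be near background. Of the 12 tested genes of that list, limma called 0 in the lines in common, against 0.0212% of all tested genes.

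In the angiotensin system, the substrate side of aminopeptidase A was near background. AGT, the precursor of the angiotensins, stood between 4.32 and 4.45 in every group, and its receptors AGTR1, AGTR2 and MAS1 stayed under 5. AGTRAP and ATP6AP2, the only tested members, differed by at most 0.59. In the endothelin system EDN1 and EDN2 were the only tested members, with differences of at most 0.23, and EDN3 and EDNRB stayed under the filter.

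Of the proteases linked to chemerin processing and their inhibitors, 10 of 15 were tested. F12, coagulation factor XII, stood at 8.06 in TC/AEW, 7.20 in TC/AVE and 7.37 in TC/CP, against 6.73 ± 0.19 in TC-71, and its difference of 1.33 in TC/AEW had adjusted p = 0.908 by limma. CTSL, a lysosomal cysteine protease, differed by 0.48 in TC/AEW, 0.70 in TC/AVE and 1.00 in TC/CP, where TC-71 had an SD of 0.41. Within the array set the CTSL differences were 0.08, 0.31 and 0.96 in the same lines. CTSK differed by 0.87 in TC/AEW, -0.31 in TC/AVE and 0.14 in TC/CP. CPB2, a carboxypeptidase that removes basic residues, stood at 4.88, 4.31 and 4.66, against 5.47 ± 0.56. In the lines in common, F12, CTSL and CPB2 differed by 0.81, 0.73 and -0.85, with adjusted p = 0.435, 0.491 and 0.503 by limma. CMKLR2, the remaining chemerin receptor, stayed near 3 in every group.

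Retinoid signalling genes were listed because of the origin of the name RARRES2. The 10 tested members ranged from -0.36 to 0.30 in TC/AVE, with a median of -0.07. RXRA, RARG and TGM2 differed by -0.36, 0.30 and -0.24 in TC/AVE. CYP26B1, which degrades retinoic acid, was 1.23 higher in TC/CP, where TC-71 had an SD of 0.74 (adjusted p = 0.998 by limma). RARRES1 stayed under the filter, and PLAAT4, another gene first named for its retinoid response, differed by at most 0.07.

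**Figure D4:**
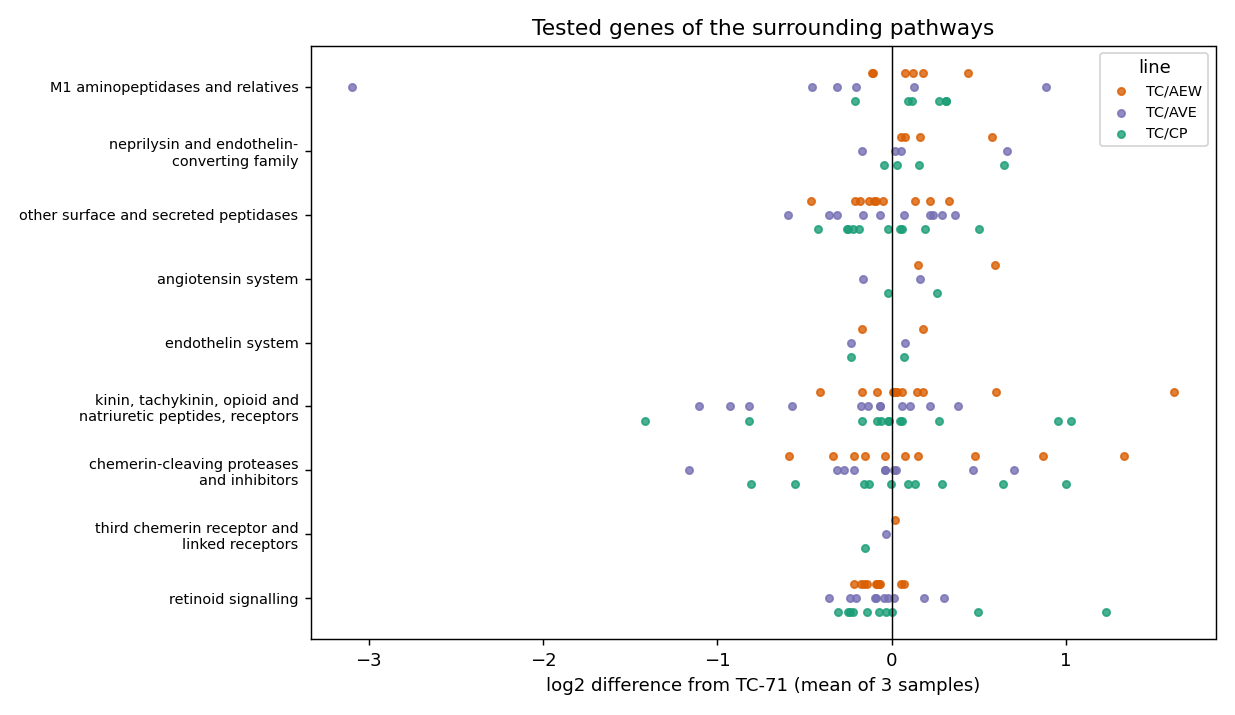
Log2 difference from TC-71 of each tested gene in the 9 lists around ENPEP and RARRES2, by line. The lowest point is TRHDE in TC/AVE at -3.09 and the highest is GAL in TC/AEW at 1.62.

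The genes whose levels most resembled ENPEP were ranked by Pearson's r over the 6 samples, among 2893 genes with a range of at least 1. They were SLC7A2, a transporter of basic amino acids (r = 0.985), DNMT3A, a DNA methyltransferase (0.977), KHDRBS3, an RNA-binding protein (0.973), SOX11, a transcription factor (0.972), and MDK, the growth factor midkine (0.972). SLC7A2 stood at 7.09 in TC/AEW, 5.14 in TC/AVE and 6.95 in TC/CP, against 8.20 ± 0.28 in TC-71. SOX11 differed by -0.97, -4.29 and -1.02 in the same lines. For RARRES2 they were ECI2, an enzyme of fatty acid oxidation (0.979), RFPL1S, an antisense transcript (0.979), KIF1A, an axonal motor (0.974), FUCA2, a fucosidase (0.963), and DNAJC15, a mitochondrial co-chaperone (0.960). ECI2 stood at 8.91 in TC/AEW, 4.05 in TC/AVE and 8.53 in TC/CP, against 8.82 ± 0.21 in TC-71. Since ENPEP and RARRES2 were far lower in TC/AVE than in the other samples, a high r selects genes that were low there too, and the 6 points behind each r share the same arrays. ENPEP and RARRES2 had r = 0.948 with each other on the same terms, which placed RARRES2 at number 26 for ENPEP and ENPEP at number 16 for RARRES2.

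None of the nearest tested genes on the chromosome, taken after the values were seen, was lower by 1 or more in TC/AVE. Of the 5 nearest tested protein-coding genes on each side of ENPEP on chromosome 4, 5 of 10 were lower in TC/AVE and 0 were lower by 1 or more, with a median of 0.08. They ran from -0.90 for CASP6, a caspase, to 1.48 for FAM241A. ELOVL6, the next gene on one side and an elongase of fatty acids, differed by -0.48, and EGF, the gene of epidermal growth factor, by 0.40. Around RARRES2 on chromosome 7, 2 of 10 were lower in TC/AVE and 0 by 1 or more, with a range from -0.32 for ACTR3C to 0.28 and a median of 0.12. The adjoining genes LRRC61 and REPIN1 differed by 0.18 and 0.19. Over all tested genes the median in TC/AVE was -0.017, and 3.72% differed by 1 or more in either direction. Counts of 0 among 10 genes are therefore usual, and a part of the chromosome region was not tested.

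**Figure D5:**
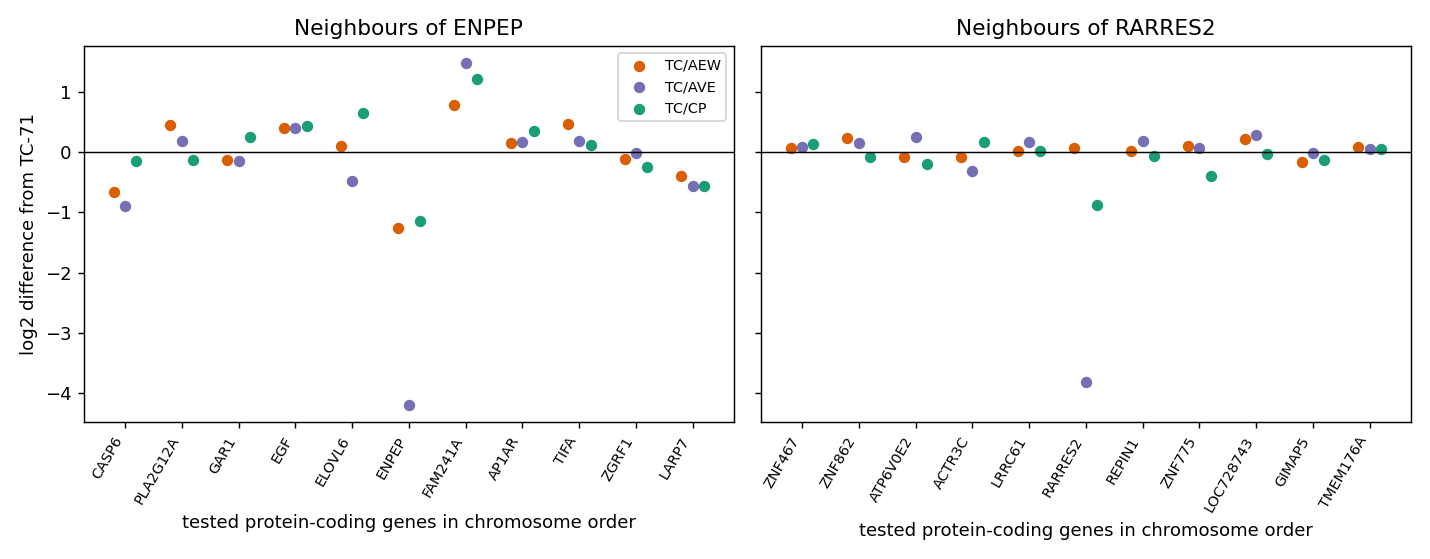
Log2 difference from TC-71 in each line for ENPEP, RARRES2 and the 5 nearest tested protein-coding genes on either side, in chromosome order and not to scale. ENPEP and RARRES2 lie at -4.19 and -3.82 in TC/AVE, and no neighbour is below -0.90 there.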

How the data were processed

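The authors deposited log2 values per probe set. The submitters' processing notes name RMA and the R package affy without versions. RMA subtracts background and forces arrays to one distribution, which compresses differences of dim probe sets. The values were used as deposited, with 62 control probe sets left out.

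Symbols came from the platform annotation. A gene was tested through the brightest of its kept probe sets by mean, and _x_at probe sets were used only where there was no other. This gave 14181 genes. Differences were tested two-sided with limma 3.58.1 in R 4.3.3, with Benjamini-Hochberg adjustment over all of them. A fit with 4 groups served the single lines (2 residual degrees of freedom) and a fit with 2 groups the lines in common (4 residual). The lone line is assumed to vary like TC-71. Both fits were run on simulated data with equal shifts in all lines, as a check of the estimated differences. That simulation cannot show whether a lone line varies like TC-71. Precision is limited by the number of independent samples, which is 3 for TC-71 and 1 for each line. The p-values rest on the spread among the samples described, which for a single line is that of TC-71 alone. limma moderates that spread with a prior variance from all genes, with 3.00 prior degrees of freedom for the single lines and 3.06 for the lines in common. The TC-71 samples each belong to a different array set, and sample 1 to a set without a resistant line. Their spread therefore includes any difference between sets.

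The named genes were the 7 members, up to 4 genes per list by largest difference, and the 5 most alike by r. Further list genes, cell markers and chromosome neighbours were named after their values were seen. Members and lists were chosen with earlier results of these data known. Alternatives changed the filter, the probe set, the prior variance, the centring, the arrays used and the samples.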

Additional observations from a re-analysis of the deposited data

How the results depend on the processing

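Over the 13 alternatives for each line, the ENPEP difference lay between -1.38 and -1.14 in TC/AEW, -4.30 and -4.07 in TC/AVE, and -1.39 and -1.02 in TC/CP. Not all of these alternatives could move it. The filters, the loss of _x_at and _s_at probe sets, the prior variance and the 9 arrays as samples leave the ENPEP and RARRES2 differences unchanged by construction. RARRES2 ran from -0.05 to 0.20 in TC/AEW, from -4.17 (second technical arrays alone) to -3.47 (first alone) in TC/AVE, and from -1.11 to -0.75 in TC/CP. The counts of genes called moved with the setting. With each of the 9 arrays as a sample of its own, so that technical replicates count in full, it was 547 in TC/AEW, 1857 in TC/AVE, 1029 in TC/CP and 240 in the lines in common, against 0, 0, 0 and 3. With the mean of all kept probe sets 6 were called in TC/AVE, and with a prior variance that follows the level 1 in TC/CP. In the lines in common the count was 0 with no filter and 0 with the array set as a block. It was 5 with no _x_at or _s_at probe sets, with centred arrays and with the first technical arrays. It was 6 with a filter at 6, with the mean of probe sets and with the prior variance that follows the level. Leaving out any TC-71 sample or any line gave 0 there. Some small differences changed sign when a TC-71 sample was left out or when the TC-71 sample of the same array set stood alone, which gave MME 0.16 in TC/AEW and 0.07 in TC/AVE, ECE1 0.09 in TC/AEW, and CMKLR1 0.01 in TC/AEW, 0.01 in TC/AVE and 0.22 in TC/CP. In TC/AEW, ECE1 ran from -0.24 without sample 2 to 0.029 without sample 1, and MME from -0.15 without sample 2 to 0.021 without sample 3. Without sample 3 against without sample 1, CMKLR1 ran from -0.26 to 0.13 in TC/AEW, -0.26 to 0.12 in TC/AVE, -0.28 to 0.11 in TC/CP and -0.27 to 0.12 in the lines in common. CMKLR1 stood at 0.10 in the lines in common with the array set as a block. The cause of these moves was not tested. CMKLR1 had no value with a filter at 6 and MME none without _s_at probe sets. No paired analysis was possible because the replicate numbers of the lines mark technical arrays, which were averaged, and those of TC-71 mark separate samples. Signal near background limits ENPEP, RARRES2 and TRHDE in TC/AVE, and MME and CMKLR1 everywhere. Among the further named genes it also limits, for example, NPR3 and CPB2 in every group and LIPI in the lines.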
